A study of Mus musculus with 6 samples.

Results

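The autophagy genes are the 38 rows, of 13564 in the deposited table of normalized values, whose mouse symbol starts with Atg and a number, is Wipi1 or Wipi2, or is 1 of 17 other names of the core machinery and its cargo receptors, from Ulk1 to Bnip3l. All 38 were tested, together with 13691 genes in all that reached 10 counts in 3 or more libraries. The libraries hold RNA of naive CD4 T cells (CD4N) sorted from lymph nodes of Foxo1TKO mice (n = 3) and Foxo1Ctrl mice (n = 3) of C57BL/6 background. Foxo1TKO mice carry Foxo1 fl/fl and CD4-Cre, so that the gene is lost in T cells, and Foxo1Ctrl mice are Foxo1 fl/fl littermates without Cre. Cells of both genotypes were activated over 4 days by anti-CD3 in solution at 0.1 µg/ml, in the presence of 250000 splenocytes of CD3ε KO mice, which lack T cells and have an intact Foxo1 gene. The labels give 50000 T cells per culture and the methods another number. The study describes these mice as young adults. Nothing states whether the splenocytes were removed before RNA extraction, or whether each library came from its own mouse, so p-values here measure the spread between these libraries, which may be technical.

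Macroautophagy encloses cytoplasm in a double membrane that then fuses with lysosomes. The Ulk1 kinase complex starts the process, the class III PI3 kinase complexes mark the membrane with a lipid, Atg9 vesicles and Atg2 proteins supply lipid, and ubiquitin-like conjugation attaches Atg8 proteins (LC3 and GABARAP) to the membrane, where cargo receptors bind them. In T cells the process clears mitochondria as naive cells mature and is induced by activation, and Foxo factors are known in other tissues to act on the transcription of several of its genes.

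Of the 38 autophagy genes, 8 passed the test between the genotypes (adjusted p under 0.05 in edgeR's quasi-likelihood test, Benjamini-Hochberg adjustment over all genes tested), which is 21.1%, against 24.2% of all genes tested. Atg7, Gabarapl1 and Wipi2 were higher in Foxo1TKO cells (7.89% of the genes, against 11.8% of all genes), and Gabarapl2, Bnip3l, Nbr1, Atg12 and Ulk1 were lower (13.2%, against 12.4%). With a fold change over 1.5 as well, 7 remained (18.4%, against 23.0%). The libraries of the genotypes did not overlap for 9 genes (23.7%, against 42.7%), these 8 and Atg3. Without Foxo1TKO replicate 2, 3 of the 38 passed (Atg7, Gabarapl1 and Gabarapl2) and 13.5% of all genes, and 4 passed (10.5%, these 3 and Bnip3l) without Foxo1TKO replicate 3 or without Foxo1Ctrl replicate 1 or 3, when 14.8% to 17.5% of all genes did. The log2 fold changes, given as Foxo1TKO against Foxo1Ctrl throughout, had a median of −0.09 and ran from −0.93 to 1.63, with 28 below 0 and 10 above (6757 and 6934 of all 13691 genes). Their median size regardless of sign was 0.28, against 0.46 over all genes, whose median fold change was 0.01. The share of autophagy genes that passed was thus near that of all genes.

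**Figure D1:**
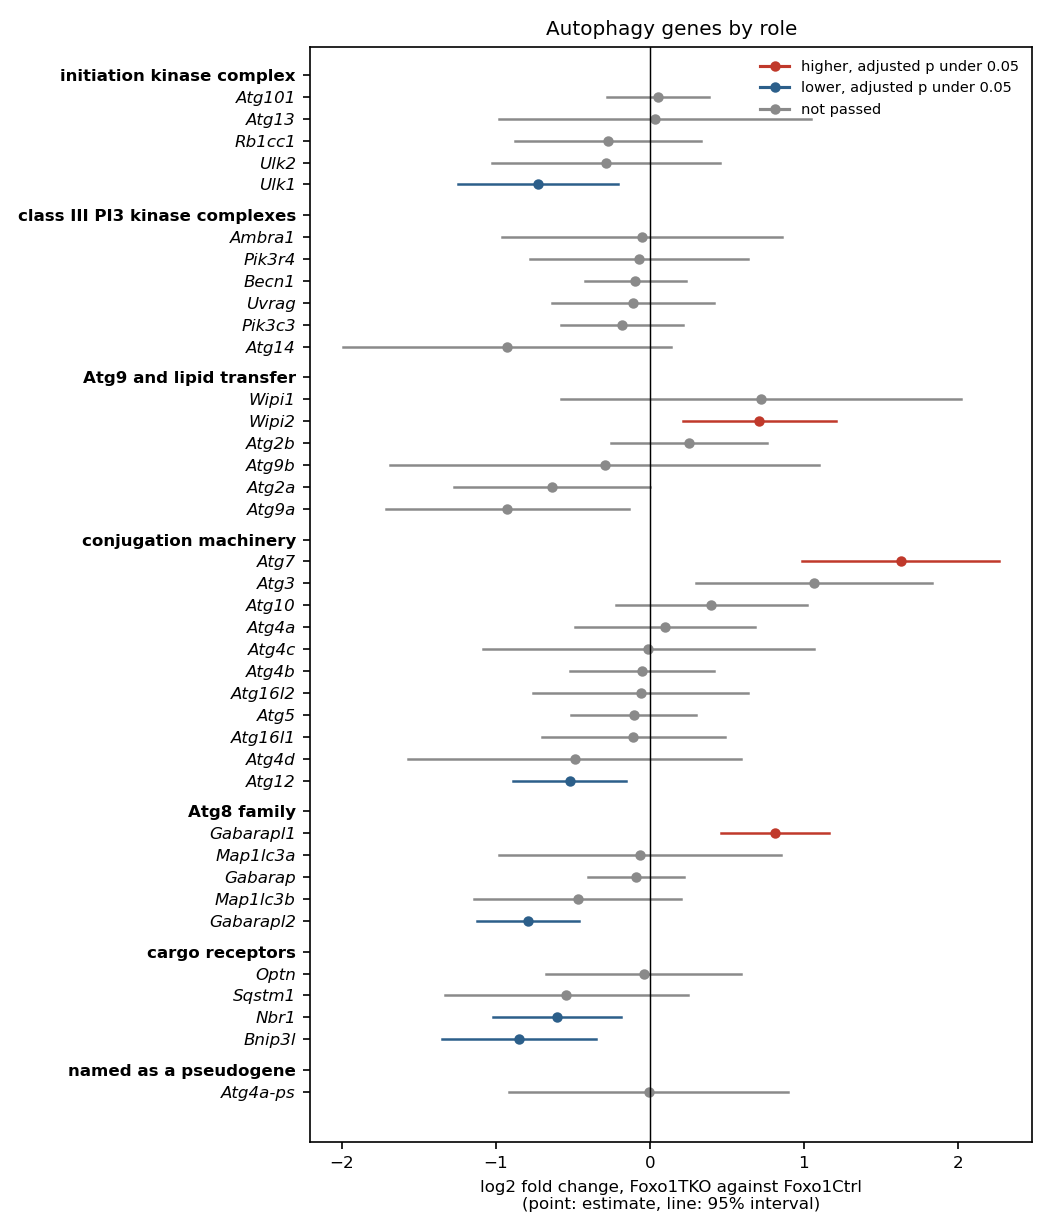
Log2 fold change (x axis) of each of the 38 autophagy genes, grouped by role, with its 95% interval from edgeR's fit of 3 Foxo1TKO against 3 Foxo1Ctrl libraries. The 3 genes that passed as higher are red, the 5 that passed as lower are blue, and Atg7 lies farthest from 0 at 1.63.

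In the initiation complex, 1 of 5 genes passed (20%, against 24.2% of all genes). Ulk1 (ENSMUSG00000029512, GRCm38 chr5:110784488-110810097, minus strand), the kinase at the head of the pathway, had TMM-normalized counts of 163, 120.2 and 129 in Foxo1TKO replicates 1 to 3 and of 256, 197 and 233 in Foxo1Ctrl replicates 1 to 3. Each Foxo1TKO library lay below each Foxo1Ctrl library. Its log2 fold change was −0.73 (SE 0.22, adjusted p = 0.0497 by edgeR, quasi-likelihood test, Benjamini-Hochberg adjusted), and the adjusted p was above 0.05 without Foxo1Ctrl replicate 1 (0.171) or 3 (0.13) and without Foxo1TKO replicate 2 (0.186) or 3 (0.122). Its paralog Ulk2 (−0.29), the scaffold Rb1cc1 (−0.27), and the adaptors Atg13 (0.03) and Atg101 (0.05) did not pass. For Atg101 the 95% interval of the log2 fold change was narrow (−0.28 to 0.38), whereas that of Atg13 ran from −0.98 to 1.05.

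None of the 6 genes of the class III PI3 kinase complexes passed by edgeR (24.2% of all genes did) or by DESeq2, and 0 of 6 had an unadjusted p under 0.05. All 6 log2 fold changes were below 0, from −0.93 (Atg14, which directs the complex to forming autophagosomes) to −0.05 (Ambra1, a Beclin 1 partner). Of all 13691 genes tested, 6757 were below 0. Becn1, which encodes Beclin 1, had 4943, 5434 and 6159 normalized counts in the Foxo1TKO libraries and 5847, 6080.4 and 5727 in the Foxo1Ctrl libraries. These ranges overlapped, and the log2 fold change was −0.09 (95% interval −0.42 to 0.23). The lipid kinase Pik3c3 (−0.18), its regulatory subunit Pik3r4 (−0.07) and Uvrag (−0.11), which directs the complex to endosomes, lay between these. Atg14 had the widest interval of the 6, from −1.99 to 0.14.

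Among the 6 genes of Atg9 vesicles, lipid transfer and lipid binding, Wipi2 alone passed (16.7%, against 24.2% of all genes). Wipi2 (ENSMUSG00000029578, chr5:142627698-142670588, plus strand) encodes a protein that binds the lipid made by the class III kinase and recruits Atg16l1. Its normalized counts were 1058, 803 and 1041 in the Foxo1TKO libraries against 616, 449 and 704 in the Foxo1Ctrl libraries. The groups did not overlap, and the lowest library of each was its replicate 2. The log2 fold change was 0.71 (SE 0.21, adjusted p = 0.0457 by edgeR, quasi-likelihood test, Benjamini-Hochberg adjusted). With any 1 of the 6 libraries left out the adjusted p lay between 0.0531 and 0.122, so this call needed all 6. Wipi1 (0.72, 95% interval −0.58 to 2.02) is a low gene with 5 counts in its lowest library. Atg9a, the membrane protein of the vesicles (−0.93, adjusted p = 0.0884), and Atg2a, a lipid transfer protein (−0.63, adjusted p = 0.139), did not pass by edgeR, while DESeq2 gave adjusted p-values of 0.0392 and 0.106. Without Foxo1Ctrl replicate 2 both passed by edgeR's quasi-likelihood test (adjusted p = 0.00386 and 0.0476). The largest values with 1 library left out were 0.27 and 0.435. Atg2b (0.25) and Atg9b (−0.29, 8 counts in its lowest library) did not pass either.

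The widest range of log2 fold changes, from −0.52 to 1.63, was in the conjugation machinery. Of its 11 genes 2 passed (18.2%, against 24.2% of all genes), in opposite directions. The median size of change regardless of sign was small there, at 0.11, against 0.67 among the genes of Atg9 vesicles, lipid transfer and lipid binding. Atg7 (ENSMUSG00000030314, chr6:114643097-114860614, plus strand) encodes the activating enzyme for both Atg12 and the Atg8 proteins. It had 1474, 1030.1 and 1011 normalized counts in the Foxo1TKO libraries and 430.4, 246 and 458 in the Foxo1Ctrl libraries, 1172 ± 262 against 378 ± 115 (mean ± SD, n = 3 each). The lowest Foxo1TKO library was thus above the highest Foxo1Ctrl library, and the difference between genotypes was larger than the spread within either. Atg7 was 3.09-fold higher in Foxo1TKO cells (log2 fold change 1.63, SE 0.28, adjusted p = 0.00493 by edgeR, quasi-likelihood test, Benjamini-Hochberg adjusted). With 1 library left out it ran from 1.42 to 1.79 and passed each time (largest adjusted p = 0.0169).

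Atg12 (ENSMUSG00000032905, chr18:46730144-46741580, minus strand), the ubiquitin-like protein that Atg7 activates and that is joined to Atg5, was lower. Its normalized counts were 1386, 1807 and 1788 in the Foxo1TKO libraries and 2288, 2584 and 2272 in the Foxo1Ctrl libraries. The groups did not overlap, with Foxo1TKO replicate 1 the lowest of all 6. The log2 fold change was −0.52 (SE 0.16, adjusted p = 0.0482 by edgeR, quasi-likelihood test, Benjamini-Hochberg adjusted), a 1.43-fold difference, and the adjusted p lay between 0.0693 and 0.122 with any 1 library left out.

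Atg3 (ENSMUSG00000022663, chr16:45158785-45188538, plus strand), the conjugating enzyme that passes Atg8 proteins from Atg7 to the lipid, did not pass although its groups did not overlap. Its normalized counts were 1416, 2404 and 2472 in the Foxo1TKO libraries and 572, 1161 and 1269 in the Foxo1Ctrl libraries. In each genotype replicate 1 was the lowest. The log2 fold change was 1.07 (SE 0.33, adjusted p = 0.0519 by edgeR, quasi-likelihood test, Benjamini-Hochberg adjusted, and 0.0129 by DESeq2), and the adjusted p was 0.0314 without Foxo1TKO replicate 1.

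The other 8 conjugation genes ran from −0.49 (Atg4d) to 0.40 (Atg10, the conjugating enzyme for Atg12), and none passed by edgeR or DESeq2 or had an unadjusted p under 0.05. Atg5, the partner of Atg12, was at −0.11 (95% interval −0.51 to 0.30). Atg16l1, which completes the complex of Atg12 and Atg5, was at −0.11 and its relative Atg16l2 at −0.06. The proteases that trim Atg8 proteins and free them from lipid were at 0.10 (Atg4a), −0.05 (Atg4b) and −0.01 (Atg4c). Atg4a-ps, named as a pseudogene of Atg4a but annotated as protein coding in GENCODE M21, was at −0.01 (95% interval −0.91 to 0.90); it shares sequence with Atg4a, both had fractional expected counts in all 6 libraries, and the values of both are uncertain to that extent.

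**Figure D2:**
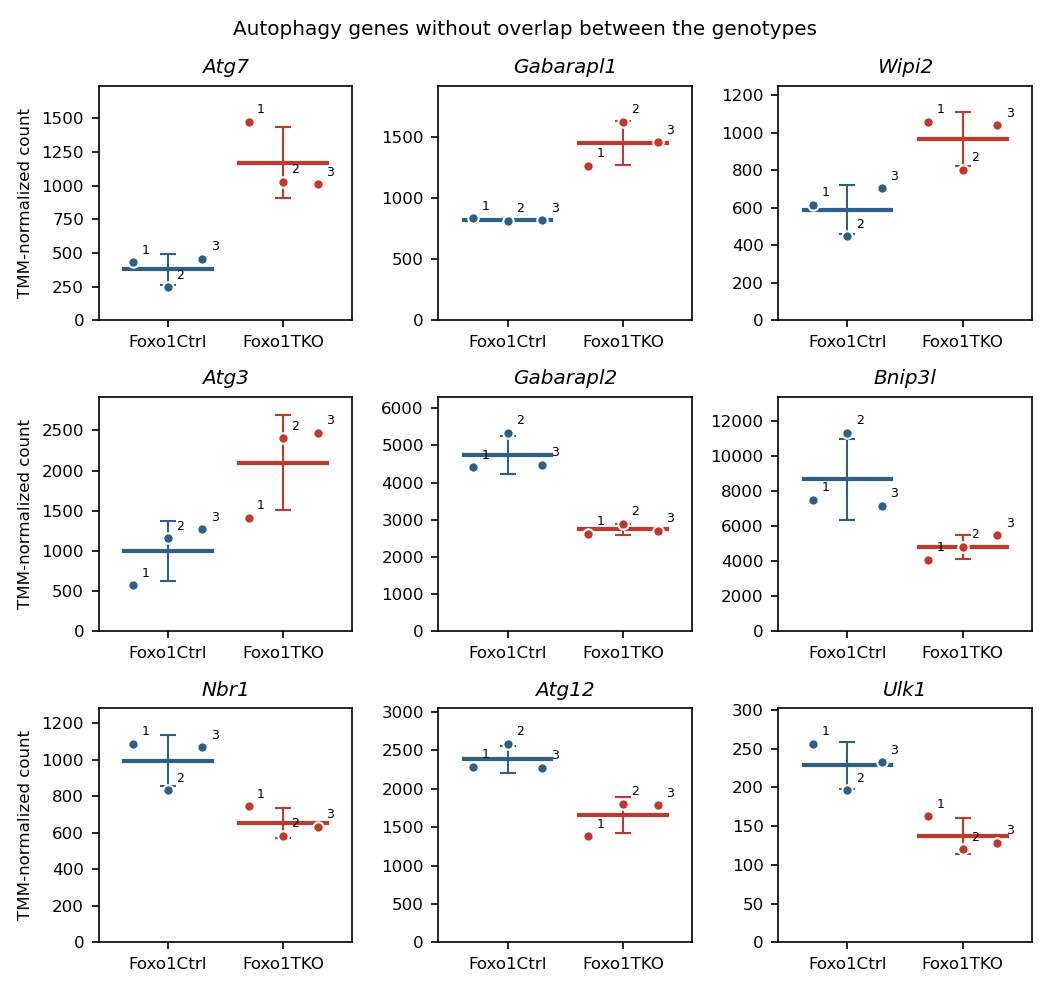
TMM-normalized counts (y axis, from 0) of the 9 autophagy genes whose libraries did not overlap between Foxo1Ctrl (blue) and Foxo1TKO (red); points are libraries with their replicate number, bars the mean and the SD (n = 3). Atg3 is the gene of the 9 that did not pass, and its replicate 1 is the lowest library of each genotype.

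Ratios of TPM within a library, which do not depend on the scaling between libraries, were computed for 3 pairs of genes chosen after their values were seen. The ratio of Atg7 to Atg5 was 1.81, 0.983 and 1.08 in the Foxo1TKO libraries and 0.453, 0.238 and 0.490 in the Foxo1Ctrl libraries, a 3.32-fold difference of the geometric means. The ratio of Atg7 to Atg12 was 1.73, 0.961 and 1.02 against 0.314, 0.179 and 0.330, a 4.51-fold difference. In both pairs the genotypes did not overlap. The two-sided exact permutation p was 0.1 before adjustment, the smallest that 3 libraries against 3 can give. The ratio of Atg7 to Atg12 had to separate the genotypes, since Atg7 was higher and Atg12 lower in every Foxo1TKO library. Its p therefore adds nothing to the values of the genes themselves.

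The Atg8 family held both a riser and a faller among its 5 genes (40% passed, against 24.2% of all genes). Gabarapl1 (ENSMUSG00000030161, chr6:129533160-129542346, plus strand) had 1266, 1627 and 1461 normalized counts in the Foxo1TKO libraries and 835, 818 and 823 in the Foxo1Ctrl libraries. The Foxo1Ctrl libraries lay within a few percent of one another and every Foxo1TKO library was above them. Gabarapl1 was 1.76-fold higher (log2 fold change 0.81, SE 0.15, adjusted p = 0.0071 by edgeR, quasi-likelihood test, Benjamini-Hochberg adjusted) and passed with each library left out (largest adjusted p = 0.0437). The gene 1700101I11Rik overlaps its exons on the other strand, and it is not stated whether reads were counted by strand.

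Gabarapl2 (ENSMUSG00000031950, chr8:111940703-111953612, plus strand) went the other way. It had 2625, 2896 and 2711 normalized counts in the Foxo1TKO libraries and 4414, 5342 and 4481 in the Foxo1Ctrl libraries. All Foxo1TKO libraries lay well below all Foxo1Ctrl libraries. Gabarapl2 was 1.73-fold lower (log2 fold change −0.79, SE 0.14, adjusted p = 0.0062 by edgeR, quasi-likelihood test, Benjamini-Hochberg adjusted) and passed with each library left out (largest adjusted p = 0.0372).

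Map1lc3b, which encodes LC3B, had the highest TPM of the 38 genes (mean of 6 libraries 906 TPM) and did not pass. Its normalized counts were 11449, 16692 and 20019 in the Foxo1TKO libraries and 17848, 31254 and 17489 in the Foxo1Ctrl libraries. The ranges overlapped, since Foxo1TKO replicate 3 was above Foxo1Ctrl replicates 1 and 3, and the log2 fold change was −0.47 (95% interval −1.14 to 0.20). Gabarap had 2842, 3205 and 3045 normalized counts against 3268, 3425 and 2986, with a log2 fold change of −0.09 (95% interval −0.40 to 0.22). Map1lc3a, at 5.72 TPM the lowest of the family, was at −0.06 (95% interval −0.98 to 0.85).

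Per length, Gabarapl2 stayed the more abundant of the pair that changed, at 201 against 58.3 TPM in Foxo1TKO cells and 337 against 32.1 TPM in Foxo1Ctrl cells. The TPM ratio of Gabarapl1 to Gabarapl2 was 0.263, 0.307 and 0.300 in the Foxo1TKO libraries and 0.104, 0.0825 and 0.0996 in the Foxo1Ctrl libraries. The genotypes were far apart relative to the libraries within each, with a 3.05-fold difference of the geometric means. The two-sided exact permutation p was 0.1, the smallest possible, for each of the 3 ratios, and so also after adjustment over them. The ratio of Gabarapl1 to Gabarapl2 had to separate the genotypes, since Gabarapl1 was higher and Gabarapl2 lower in every Foxo1TKO library. Its p therefore adds nothing to the values of the genes themselves. As a share of the summed TPM of the 5 Atg8 genes, Gabarapl1 took 4.64% ± 0.57 in Foxo1TKO cells and 2.02% ± 0.53 in Foxo1Ctrl cells (SD, n = 3). Gabarapl2 took 16.1% ± 3.0 and 20.9% ± 3.35, and Map1lc3b 60.9% ± 6.92 and 62.3% ± 7.15.

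**Figure D3:**
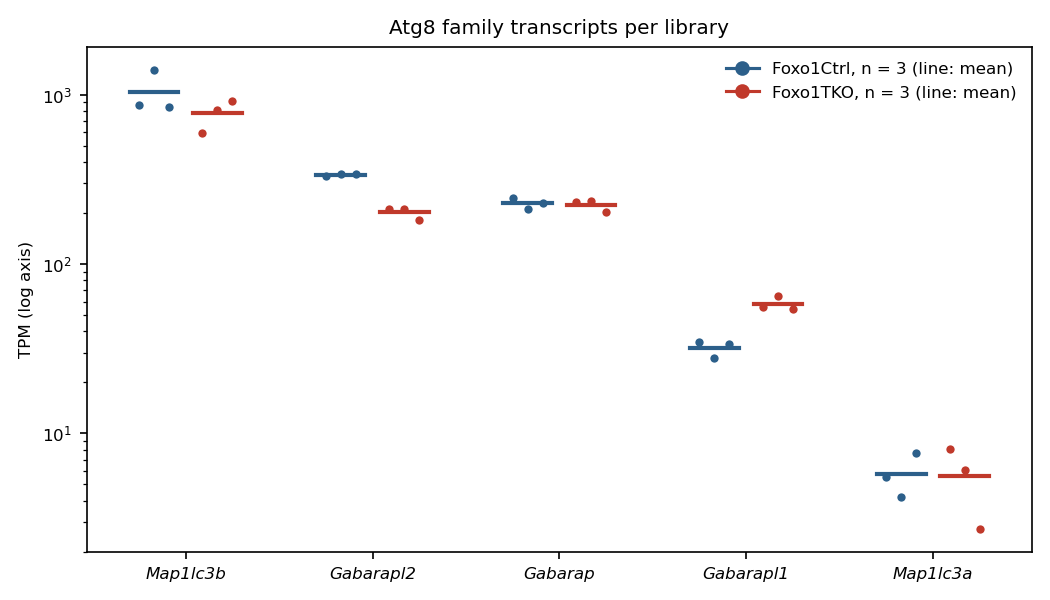
TPM (log axis) of the 5 Atg8 family genes in the 3 Foxo1Ctrl libraries (blue) and the 3 Foxo1TKO libraries (red), with the mean as a line. Gabarapl1 is higher and Gabarapl2 lower in every Foxo1TKO library than in every Foxo1Ctrl library, and Map1lc3b is the most abundant in both genotypes.

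All 4 cargo receptor genes had log2 fold changes below 0 (6757 of all 13691 genes did), and 2 of them passed (50%, against 24.2% of all genes). Bnip3l (ENSMUSG00000022051, chr14:66985239-67008877, minus strand) encodes a receptor of the mitochondrial outer membrane and was, at a mean of 543 TPM, the second most abundant of the 38 genes. Its normalized counts were 4091, 4830.0 and 5508 in the Foxo1TKO libraries and 7513, 11329 and 7165 in the Foxo1Ctrl libraries. No library overlapped, and Foxo1Ctrl replicate 2 stood above the others. Bnip3l was 1.80-fold lower (log2 fold change −0.85, SE 0.22, adjusted p = 0.0252 by edgeR, quasi-likelihood test, Benjamini-Hochberg adjusted), and the adjusted p was 0.0746 without Foxo1TKO replicate 1 and 0.0973 without Foxo1TKO replicate 2.

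Nbr1 (ENSMUSG00000017119, chr11:101552149-101581951, plus strand), a receptor for ubiquitinated cargo, had 745, 584 and 633 normalized counts in the Foxo1TKO libraries and 1086, 831 and 1066 in the Foxo1Ctrl libraries. Replicate 2 was the lowest library of each genotype, and the groups did not overlap. The log2 fold change was −0.60 (SE 0.18, adjusted p = 0.044 by edgeR, quasi-likelihood test, Benjamini-Hochberg adjusted). The adjusted p was above 0.05 without Foxo1TKO replicate 2 (0.177) or 3 (0.118) and without Foxo1Ctrl replicate 1 (0.143) or 3 (0.134). Sqstm1, which encodes the receptor p62, was at −0.54 (95% interval −1.33 to 0.24), and Optn at −0.04 (95% interval −0.67 to 0.59).

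The promoters of the pair of Atg8 genes that passed in opposite directions, and of Atg3, which has the letters CACGTG at 2 places, are shown from RefSeq (build GRCm38.p6, 250 bases before to 50 after the start, all on the plus strand). Capitals mark CACGTG, the E-box letters that TFEB family factors are known to bind. The regions are chr6:129532942-129533241 (Gabarapl1), chr8:111940453-111940752 (Gabarapl2) and chr16:45158579-45158878 (Atg3).
Gabarapl1: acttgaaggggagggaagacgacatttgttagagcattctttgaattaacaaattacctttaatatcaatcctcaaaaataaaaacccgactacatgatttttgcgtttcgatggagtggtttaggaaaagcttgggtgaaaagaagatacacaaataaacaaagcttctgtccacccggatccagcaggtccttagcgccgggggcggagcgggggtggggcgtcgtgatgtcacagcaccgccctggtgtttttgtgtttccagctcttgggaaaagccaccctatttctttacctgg
Gabarapl2: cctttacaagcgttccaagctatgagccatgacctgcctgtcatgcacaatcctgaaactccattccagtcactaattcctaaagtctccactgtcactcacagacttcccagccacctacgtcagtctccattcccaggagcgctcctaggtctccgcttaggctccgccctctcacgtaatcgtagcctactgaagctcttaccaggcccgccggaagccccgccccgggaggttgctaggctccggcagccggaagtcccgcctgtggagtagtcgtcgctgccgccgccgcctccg
Atg3: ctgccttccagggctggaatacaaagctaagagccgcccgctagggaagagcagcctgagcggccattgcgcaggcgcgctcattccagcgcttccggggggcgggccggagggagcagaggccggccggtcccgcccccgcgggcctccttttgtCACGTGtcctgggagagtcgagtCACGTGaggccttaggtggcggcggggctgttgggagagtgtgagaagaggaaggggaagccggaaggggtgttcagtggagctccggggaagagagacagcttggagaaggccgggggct

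RefSeq promoters were matched to 30 of the 38 genes, 33 promoters in all. Atg12, Atg16l1, Atg4a-ps, Becn1, Bnip3l, Map1lc3a, Pik3c3 and Rb1cc1 were not matched. On either strand, GTAAACA, a form of the core letters bound by Foxo and other forkhead factors, was in 0 of the 33 promoters and in 3.65% of all 32851 promoters of the same length. Other forms of this core were not searched, so the count does not show that these promoters lack it. CACGTG, which reads the same on both strands, was in the promoters of 4 of the 30 genes (Atg3, Atg5, Atg7 and Atg14), which is 13.3%, and of 8.09% of all genes with a promoter in the table; by promoter it was in 12.1% against 7.15%. In Atg3 it began 94 and 71 bases before the start. The promoter matched to Atg7 belongs to a start 27999 bases inside the gene as GENCODE annotates it, and that matched to Atg14 to a start 2215 bases inside, so neither covers the first annotated start. The same holds for Wipi1 (578 bases), Wipi2 (1886 bases) and Atg4b (3405 bases). These matches describe letters in a window and not binding.

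The libraries of one genotype differed among themselves across the genes tested. The first principal component of all tested genes (66.4% of the variance) separated the genotypes. The second (17.1%) placed Foxo1TKO replicate 1 and Foxo1Ctrl replicates 1 and 3 on one side and the other 3 libraries on the other, with Foxo1TKO replicate 1 (46.1) and Foxo1Ctrl replicate 2 (−53.8) at its ends. Genes of high GC content relative to genes of low GC content, by the median log2 value of the tenth of genes at each end, ran from 0.65 in Foxo1TKO replicate 1 to −0.74 in Foxo1Ctrl replicate 2. For 33 of the 38 autophagy genes, Foxo1TKO replicate 1 and Foxo1Ctrl replicate 2 were displaced in opposite directions from the mean of the other libraries of their genotype. These libraries were picked as the ends of the second component of the same data, which favours opposite displacement. The share over all genes was not computed, so the count cannot be read as a trait of autophagy genes. Of these 33, 19 were higher in Foxo1TKO replicate 1 and lower in Foxo1Ctrl replicate 2, and the others the reverse. The SD within genotypes was 0.37 on the log2 scale at the median of the 38 genes, and ran from 0.094 to 0.97.

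**Figure D4:**
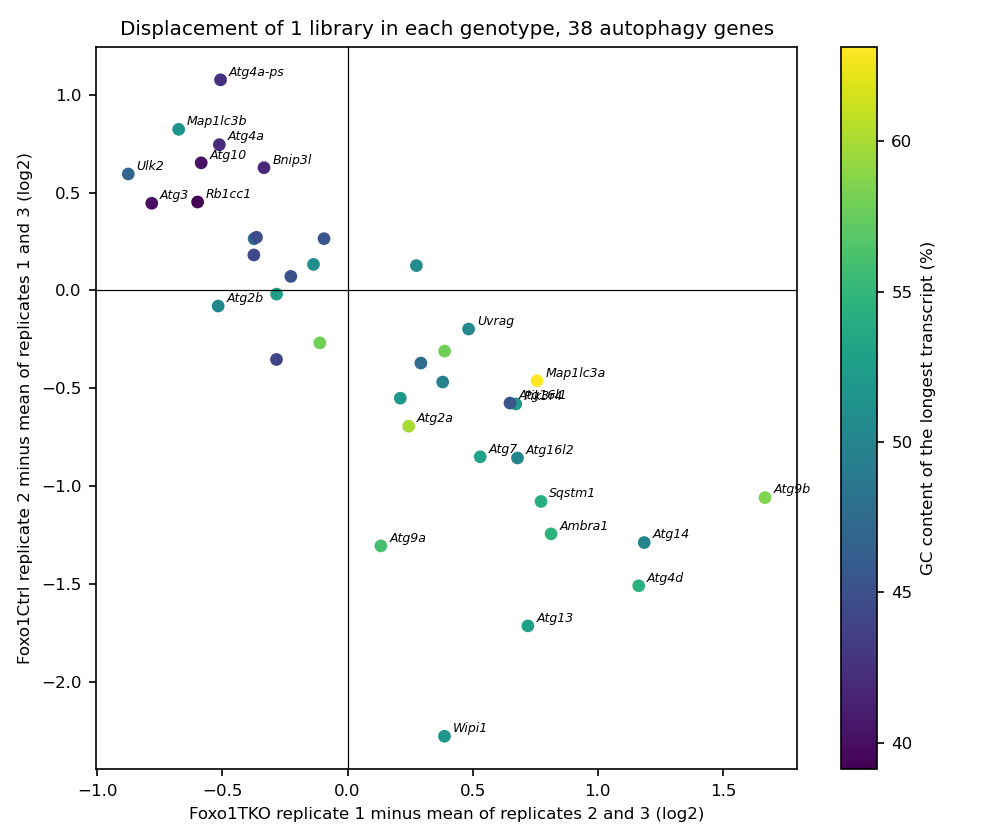
Each point is 1 of the 38 autophagy genes; the axes give, on the log2 scale, how far Foxo1TKO replicate 1 (x) and Foxo1Ctrl replicate 2 (y) lay from the mean of the other libraries of their genotype, and the colour the GC content of the longest transcript. The 33 genes at the upper left and lower right were displaced in opposite directions, 19 of them in the lower right.

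With each library's trend on GC content removed, a correction chosen after the data were seen, 11 autophagy genes passed, the 8 above and Atg3 (adjusted p = 0.016), Atg9a (0.0258) and Atg2a (0.0308), by edgeR, quasi-likelihood test, Benjamini-Hochberg adjusted. Of these 11, 4 were higher and 7 lower in Foxo1TKO cells, and 28.9% of the 38 passed, against 27.0% of all genes. The log2 fold changes of Atg7, Gabarapl1 and Gabarapl2 were then 1.55, 0.73 and −0.75. The part of the GC difference in any single change was not tested further.

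Autophagy-related genes that the list leaves out were taken from a list of 65 genes, written with earlier results of these data known. Of these 65, 61 were tested and 14 passed (23.0%, with 24.2% of all genes). Only Phb2 and Prkag2 were higher (3.28%, against 11.8% of all genes) and 12 genes were lower (19.7%, against 12.4%), and the median log2 fold change was −0.15. The libraries did not overlap for 22 genes (36.1%, against 42.7%), and 12 passed with a fold change over 1.5 as well (19.7%, against 23.0%). Deptor, Prkaa2 and Tfec were among the genes with too few counts to be tested. Without Foxo1TKO replicate 2, 1 gene was higher and 7 were lower, and without Foxo1Ctrl replicate 2, 4 were higher and 14 lower.

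Among other cargo receptors and mitophagy genes, 5 of 11 passed (45.5%, against 24.2% of all genes), 4 of them lower (36.4%, against 12.4%). Bnip3 (ENSMUSG00000078566, chr7:138890836-138909519, minus strand), a mitophagy receptor related to Bnip3l, had 592, 412 and 554 normalized counts in the Foxo1TKO libraries and 4206, 4870.5 and 3394 in the Foxo1Ctrl libraries. The groups were several-fold apart in every pair of libraries, and Bnip3 was 7.99-fold lower (log2 fold change −3.00, SE 0.21, adjusted p = 0.000128 by edgeR, quasi-likelihood test, Benjamini-Hochberg adjusted), a larger change than in any of the 38 autophagy genes. The gene Gm45507 overlaps its exons on the other strand. The receptors of endoplasmic reticulum Ccpg1 (log2 fold change −1.39, adjusted p = 0.000493) and Retreg1 (−1.18, adjusted p = 0.00796) and the ubiquitin-binding receptor Tax1bp1 (−0.76, adjusted p = 0.00725) were also lower by edgeR's test. The gene Gm43966 overlaps exons of Tax1bp1, and Pigb and Gm44503 those of Ccpg1. Phb2, an inner mitochondrial membrane protein that can bind LC3 and has other roles in mitochondria, was higher (1.31, adjusted p = 0.00898 by edgeR); Gm15884 and Gm23547 overlap its exons.

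Among other factors of autophagosome formation, 3 of 11 passed (27.3%, against 24.2% of all genes), all lower (12.4% of all genes were). Tecpr1, which binds the complex of Atg12 and Atg5, had 1229, 1289.8 and 1318 normalized counts in the Foxo1TKO libraries and 4774, 3359.8 and 3799 in the Foxo1Ctrl libraries. No library overlapped and the log2 fold change was −1.64 (adjusted p = 0.000565 by edgeR). Trp53inp1, a p53 target that binds Atg8 proteins, was at −0.73 (adjusted p = 0.0582 without Foxo1TKO replicate 2 and 0.0548 with the GC correction, by edgeR's quasi-likelihood test). Wdr45, a lipid-binding relative of Wipi2, was at −0.69 (adjusted p = 0.0617 without Foxo1TKO replicate 2 and 0.0555 without Foxo1Ctrl replicate 1).

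In the step of fusion with lysosomes, 1 of 13 genes passed (7.69%, against 24.2% of all genes). It was Stx17 (log2 fold change −1.02, adjusted p = 0.00626 by edgeR), the membrane fusion protein of the autophagosome. Of 22 regulators in the mTORC1 and AMPK pathways, 5 passed (22.7%, against 24.2% of all genes). Prkaa1, the AMPK catalytic subunit with reads here (Prkaa2 had none), had 494, 531 and 502 normalized counts in the Foxo1TKO libraries and 1096, 1049.8 and 1023 in the Foxo1Ctrl libraries. Replicates of one genotype lay close together and the log2 fold change was −1.05 (adjusted p = 0.00187 by edgeR). Prkag2, a regulatory AMPK subunit, was at 0.92 (adjusted p = 0.0617 without Foxo1TKO replicate 2), and Sesn1, a stress-induced inhibitor of mTORC1 signalling, at −0.67 (adjusted p = 0.0558 and 0.0662 without Foxo1Ctrl replicates 1 and 3, and 0.0778 without Foxo1TKO replicate 2, by edgeR's quasi-likelihood test). The other genes that passed there, Prkag1 and Sesn3, changed by less than 1.5-fold. None of the 3 TFEB family factors tested (Tfeb, Tfe3 and Mitf) passed by edgeR's quasi-likelihood test or by DESeq2, and 0 had an unadjusted p under 0.05. Zkscan3, a zinc finger repressor of autophagy genes, was at −0.47 and passed by DESeq2 but not by edgeR.

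**Figure D5:**
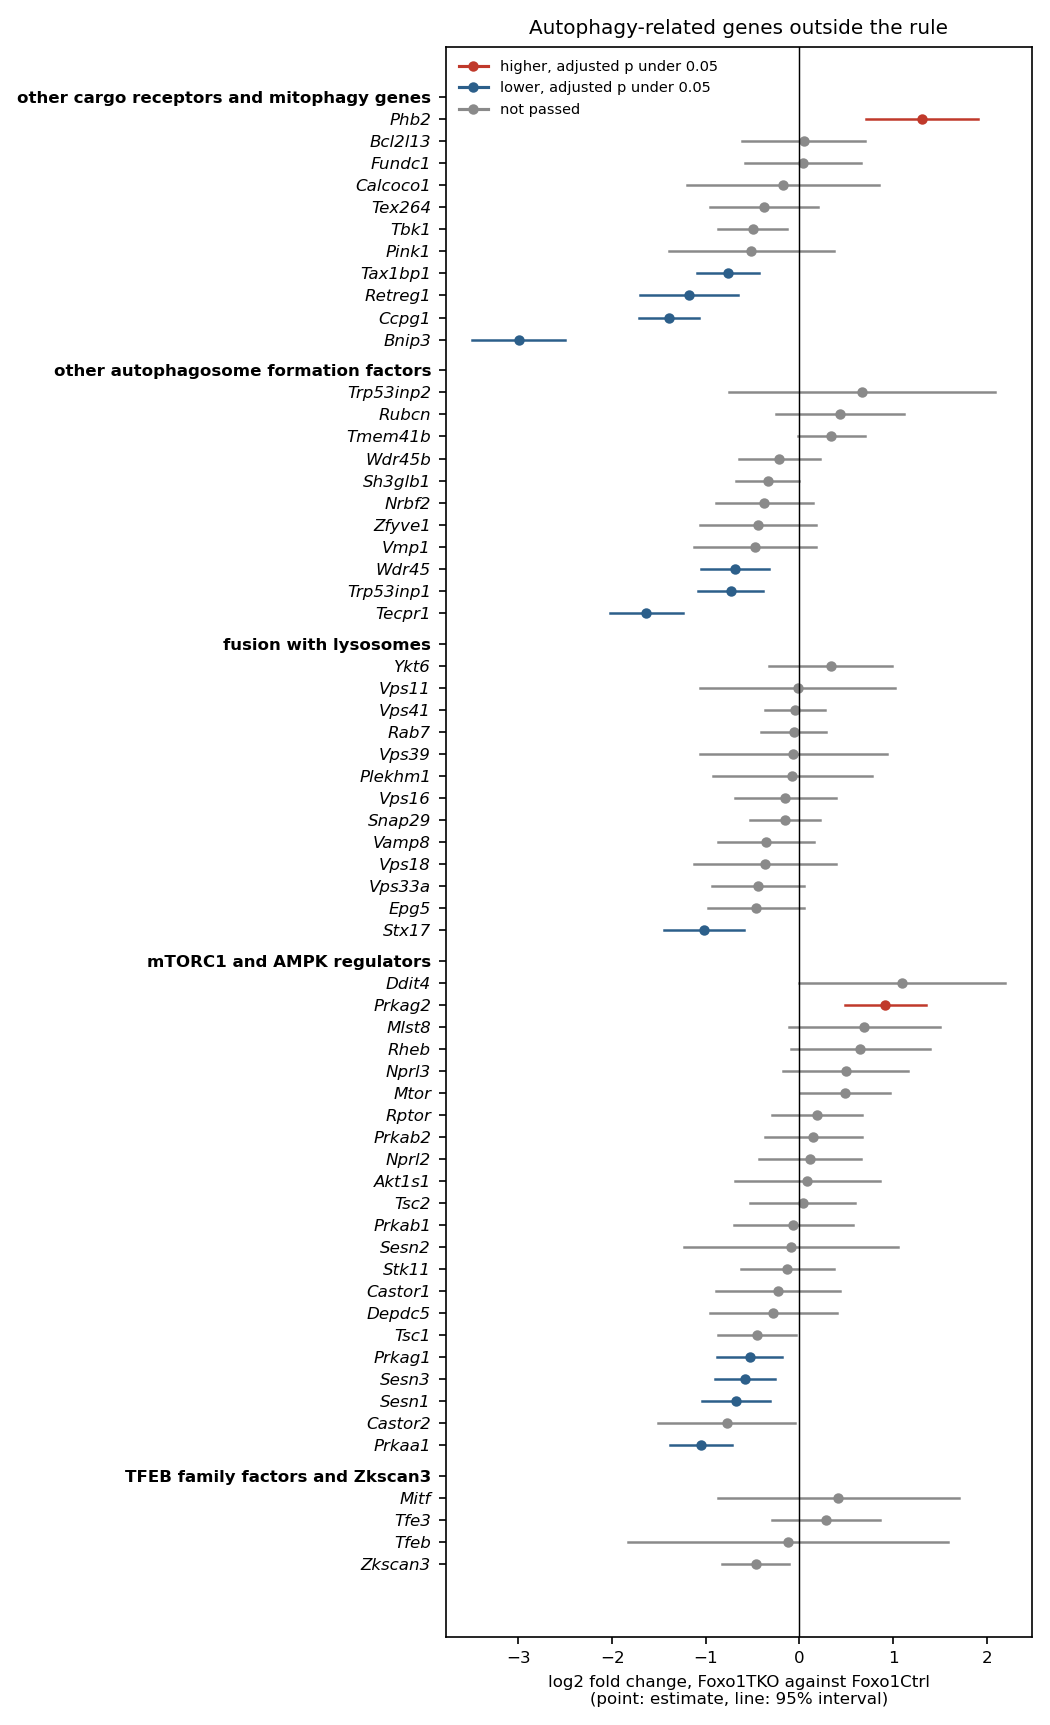
Log2 fold change (x axis) with its 95% interval for the 61 autophagy-related genes tested outside the 38, by list, from edgeR's fit of 3 against 3 libraries. The 12 genes that passed as lower are blue, with Bnip3 at −3.00, and the 2 that passed as higher, Phb2 and Prkag2, are red.

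The targeted gene checked the labels: Foxo1 had 85.4, 46.5 and 115 normalized counts in the Foxo1TKO libraries and 1529, 2285 and 1598 in the Foxo1Ctrl libraries (log2 fold change −4.45, adjusted p = 0.000195 by edgeR, quasi-likelihood test, Benjamini-Hochberg adjusted). In such bulk samples, fewer cells of a type and less RNA per cell cannot be told apart. The T cell markers were present in every library, with a summed TPM of 8649 to 9614 in Foxo1TKO and 9229.8 to 9459 in Foxo1Ctrl libraries. Of the 10 T cell markers, 1 passed as lower and 0 as higher. Without Trac the sum was 5666 to 6590 against 6855 to 6949 TPM, lower in Foxo1TKO libraries. Without Trac and Cd3g it was 3851 to 4582 against 4121 to 4657 TPM, with overlap. The summed TPM of 10 B cell markers was lower in Foxo1TKO libraries, at 490.2 to 672 against 1448 to 1926 (7.01 to 9.31 against 22.4 to 28.7 TPM without Igkc and Ighm), and 5 of the 8 tested passed as lower. Plasma cell markers summed to 110.5 to 159 against 178 to 239 TPM (Tnfrsf17 at or under 3 counts in all libraries). Without Xbp1, which overlapped between the genotypes, the plasma cell sum was 22.05 to 53 against 99.7 to 120 TPM. NK cell markers summed to 80.8 to 118 against 122 to 166 TPM. The fall of the NK sum was that of Klrk1: without it the sum was 26.1 to 32.8 against 7.09 to 9.80 TPM, since Eomes was higher (24.4 to 30.6 against 4.34 to 7.17 TPM). Dendritic cell markers summed to between 10 and 10.3 against 2.01 to 3.75 TPM through Itgax alone, and to 2.42 to 3.74 against 2.01 to 3.71 TPM without it; macrophage markers summed to 4.41 to 5.84 against 2.41 to 3.40 TPM (Fcgr1 at or under 3 counts), and erythroid markers to 15.4 to 36.1 against 21.1 to 41.1 TPM. Of 7 proliferation genes, 4 were higher in Foxo1TKO cells (378 to 507 against 221 to 279 TPM summed). Without Pcna the sum was 139 to 245 against 94.8 to 117 TPM, and Mki67 overlapped between the genotypes (6.33 to 9.07 against 6.12 to 10.7 TPM). The study reported reduced division of such Foxo1-deficient cells by dye dilution. The part of the other cell types and of proliferation in the changes of the autophagy genes was not tested.

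Besides Gabarapl1, 13 of the 38 genes share exon sequence with another annotated gene, mostly on the opposite strand (Becn1 with Cntd1, Sqstm1 with Mrnip, Map1lc3b with Zcchc14, Atg9a with Ankzf1 and Gm29253, among others). Expected counts were fractional in at least 1 library for 15 of the 38 genes, Gabarapl1, Gabarapl2 and Bnip3l among them, so some of their reads were shared by RSEM with other genes. The expected counts of Atg7, Atg3, Atg12, Wipi2, Nbr1 and Ulk1 were whole, within 0.005, in all 6 libraries.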

How the data were processed

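The study sequenced RNA of 3 Foxo1TKO and 3 Foxo1Ctrl cultures, grouped by the labels. The authors aligned reads with STAR 2.7.6a to GRCm38 and deposited RSEM 1.3.1 expected counts, TPM values and effective lengths per gene and library, and a table of normalized signal per gene, which defined the 38 genes. Strandedness is not given in the sources used here. The labels name DESeq2 for the authors' own test.

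Expected counts were rounded; totals were 14783853 to 19675407 per library, which held over 99% of counts in tested genes. Genes reaching 10 counts in 3 or more libraries were tested by edgeR 4.0.16 (TMM, glmQLFit, glmQLFTest, prior count 1; R 4.3.3), the model holding genotype alone, and Benjamini-Hochberg adjustment over 13691 genes. Normalized counts are at the mean effective library size. Levels of different genes were compared by TPM. Alternatives were DESeq2 1.42.0, limma-voom (limma 3.58.1), DESeq2 size factors, upper quartile scaling, filterByExpr, no filter, the deposited signal with limma on log2(value + 1), effective length offsets, a block for the replicate number, stricter thresholds, each library left out in turn and, added after seeing the data, GC content offsets (lowess span 0.3). The fits were tested on simulated data. Gene positions are from GENCODE M21 (GRCm38), promoters from RefSeq, and figures from matplotlib 3.10.9.

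The autophagy genes and gene lists were chosen with earlier results of these data known. All 38 genes are accounted for by role: those that passed, those without overlap and the 5 of highest TPM with each library's value, and of the other list the genes that passed with a fold change over 1.5. Same-numbered libraries of the genotypes did not deviate together in every pair (correlations 0.43, 0.20 and −0.11), and the main fit did not take numbers as pairs. These correlations cannot decide on pairing, since the deviations are taken from each genotype's own mean. The study compared its cytometry of such cultures by paired tests. It does not state whether the sequenced libraries were paired. Some genes of the lists are not reported by name.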

Additional observations from a re-analysis of the deposited data

How the results depend on the processing

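Atg7, Gabarapl1 and Gabarapl2 passed under each of the 18 alternatives; at an adjusted p under 0.01, these 3 alone passed of the 38 genes, 1 of them lower, and of the other autophagy-related genes 1 was higher and 7 lower. No direction reversed among the 9 autophagy genes whose libraries did not overlap between the genotypes. Some of the genes that did not pass changed sign. The log2 fold change of Atg101 was 0.05 in the main fit and −0.03 with GC content offsets. That of Atg13 was 0.03 in the main fit and ran from −0.33 to 0.38 with 1 library left out. With effective length offsets 3 autophagy genes were lower and with no filter on low counts 2. The causes were not tested. With 1 library left out, 3 to 8 autophagy genes passed (4 without Foxo1Ctrl replicate 1 or 3 or Foxo1TKO replicate 3, and 3, Atg7, Gabarapl1 and Gabarapl2, without Foxo1TKO replicate 2, when 1854 of all genes passed), 1 to 6 were lower, and the median log2 fold change ran from −0.23 (without Foxo1TKO replicate 1) to −0.088. Of the other autophagy-related genes 1 to 4 were then higher and 7 to 14 lower (fewest in both directions without Foxo1TKO replicate 2). DESeq2 called 10 of the 38 (26.3%, against 29.5% of all genes), limma-voom 8 (21.1%, against 24.8%), and the other scalings, filters and values 6 to 8 (15.8% to 21.1%, against 22.8% to 24.4%, or 14.9% with no filter). With the replicate block 9 passed (23.7%, against 25.0% of all genes), the same 8 and Atg3 (log2 fold change 1.10, SE 0.16, adjusted p = 0.0038 by edgeR, quasi-likelihood test). Whether libraries of the same number were cultured together is not stated, and Foxo1TKO replicate 3 correlated best with Foxo1Ctrl replicate 2 (0.30). Of the calls near the threshold, Atg12 was lost under 11 of 18 alternatives, Nbr1 under 8, Ulk1 and Wipi2 under 7 and Bnip3l under 3, while Atg3 passed under 5. Atg9a passed by DESeq2, with GC content offsets and without Foxo1Ctrl replicate 2. Atg2a passed with GC content offsets and without Foxo1Ctrl replicate 2. Depth limited Atg9b and Wipi1, whose lowest libraries held 8 and 5 counts. Leaving out a library leaves 2 in that genotype, and the spread is then shared across genes and both genotypes.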
